A study of Mus musculus with 6 samples.

Results

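The FGF receptors and ligands described here are 7 genes, taken by symbol from the 22057 genes of the deposited table: the receptors Fgfr1, Fgfr2 and Fgfr3, the receptor-like Fgfrl1, the ligands Fgf1 and Fgf2, and Fgf13. All 7 were found, and all 7 passed the filter on low values, a mean normalized count of at least 10, together with 17068 genes in all. The study sequenced polyadenylated RNA of neural progenitor cells of p53-null mice, dividing cells that can give rise to neurons and glia, in culture. In the PDGFA group (n = 3) the cells of mice 62, 68 and 69 had spent 4 days in medium with PDGFA, a platelet-derived growth factor and a mitogen of glial precursors. In the EF group (n = 3), the control, cells of the same 3 mice had been kept for 4 days with EGF, FGF and heparin. All 6 libraries are labelled p53-null and no wild-type cells were analysed here. FGF and heparin were both in the EF medium, so that the comparison is of cells given PDGFA against cells given a ligand of these receptors, and taking away one set of factors and adding another cannot be told apart.

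Fibroblast growth factors signal by bringing together pairs of receptor tyrosine kinases, and heparan sulfate chains on the cell surface, or added heparin, hold ligand and receptor in one complex. The active receptor feeds the RAS and ERK cascade, which among other genes switches on its own inhibitors. In the brain FGF2 is a standard mitogen of cultured neural progenitors, FGFR3 is found in astrocytes and their precursors, and FGFR2 is found in differentiating oligodendrocytes.

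RefSeq start sites (build GRCm38.p6) give the promoter letters of one gene that rose and one that fell. Shown are the 250 bases before the start of Fgfr2, the gene that changed most of the 7, and of Fgfrl1, which fell, with GC boxes (GGGCGG on either strand, the motif of SP1-type factors) in capitals.
Fgfr2 (chr7:130266809-130267058, minus strand): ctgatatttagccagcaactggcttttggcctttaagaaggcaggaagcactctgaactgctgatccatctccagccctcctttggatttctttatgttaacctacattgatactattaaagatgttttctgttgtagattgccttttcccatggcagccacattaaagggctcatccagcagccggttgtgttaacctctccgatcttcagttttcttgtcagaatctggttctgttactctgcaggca
Fgfrl1 (chr5:108693979-108694228, plus strand): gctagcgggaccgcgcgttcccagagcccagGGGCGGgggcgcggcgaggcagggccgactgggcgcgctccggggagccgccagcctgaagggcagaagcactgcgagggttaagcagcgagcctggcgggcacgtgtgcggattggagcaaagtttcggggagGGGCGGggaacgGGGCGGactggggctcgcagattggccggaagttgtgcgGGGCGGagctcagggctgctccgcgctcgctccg
The Fgfr2 window held no GC box and 2 CpG dinucleotides at 44.0% G and C, and the Fgfrl1 window 4 GC boxes and 30 CpG at 73.6%. The window of Fgf2, the other gene that rose, is not printed; it held 1 GC box and 20 CpG at 62.4%. Over the 32851 windows of the RefSeq table the median was 6 CpG and 52.4%, and 32.7% held a GC box. An ETS core (CCGGAAG on either strand) was found once in the Fgfrl1 window and not in that of Fgfr2, against 6.91% of all windows. An E-box (CANNTG, read on both strands) was found once in each, against 66.2% of all windows. A TATA motif (TATAAA on either strand) was in neither and in 12.4% of all. Matches that overlap each other were each counted, and a match is a match of letters only.

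Libraries held 34812800 to 39601349 recovered reads in PDGFA and 27270246 to 30151469 in EF. The spread between the mice was larger in EF than in PDGFA, with a median SD of 0.17 (log2) over the tested genes in PDGFA and 0.38 in EF. Trp53, which encodes p53, had 988 to 1122 normalized counts in PDGFA and 1672 to 2383 in EF; the deleted stretch is not named in the labels, and the genotype is therefore not checked by these reads. All 8 progenitor markers examined were in the table, and they did not move one way: Sox2, Msi1, Hes5 and Prom1 rose, and Nes, Vim and Fabp7 fell, in PDGFA. Of the 8, 4 were called higher and 3 lower with all libraries, against 21.8% and 18.0% of all tested genes. The count called higher was 2 without PDGFA 68 and 1 without PDGFA 69, against 13.5% and 15.0% of all tested genes. In these bulk samples fewer cells of a type and less RNA per cell cannot be told apart.

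Of the 7 genes, Fgfr2 and Fgf2 rose and Fgfr1, Fgfrl1 and Fgf1 fell in PDGFA, while Fgfr3 and Fgf13 did not pass the test. The test was limma on log2(normalized count + 1) with Benjamini-Hochberg adjustment over all tested genes, and genes with an adjusted p under 0.05 were called. Over all tested genes 21.8% were called higher and 18.0% lower in PDGFA, so that 2 and 3 of 7 genes are read against a background in which large shares of all genes changed. With the mouse as a block 18.8% of tested genes were called higher and 15.4% lower, by edgeR 21.0% and 19.1%, by DESeq2 23.1% and 22.0%, and with library weights 37.1% and 34.7%. With 1 library left out the shares were 15.6% and 12.5% without PDGFA 62, 13.5% and 10.9% without PDGFA 68, 15.0% and 12.4% without PDGFA 69, 24.7% and 22.5% without EF 62, 19.7% and 15.1% without EF 68, and 20.7% and 17.1% without EF 69. Leaving out mouse 68 altogether gave 11.4% and 7.82%. The PDGFA and EF libraries did not overlap in 2 of the 7 that were higher and 4 that were lower in PDGFA, where 29.2% and 26.3% of all tested genes did not overlap. A gene without overlap has the same direction in all 3 pairs by necessity, so the pairs given below add nothing to it. The median log2 fold change of the 7 was -0.77, against -0.0095 over all tested genes.

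**Figure D1:**
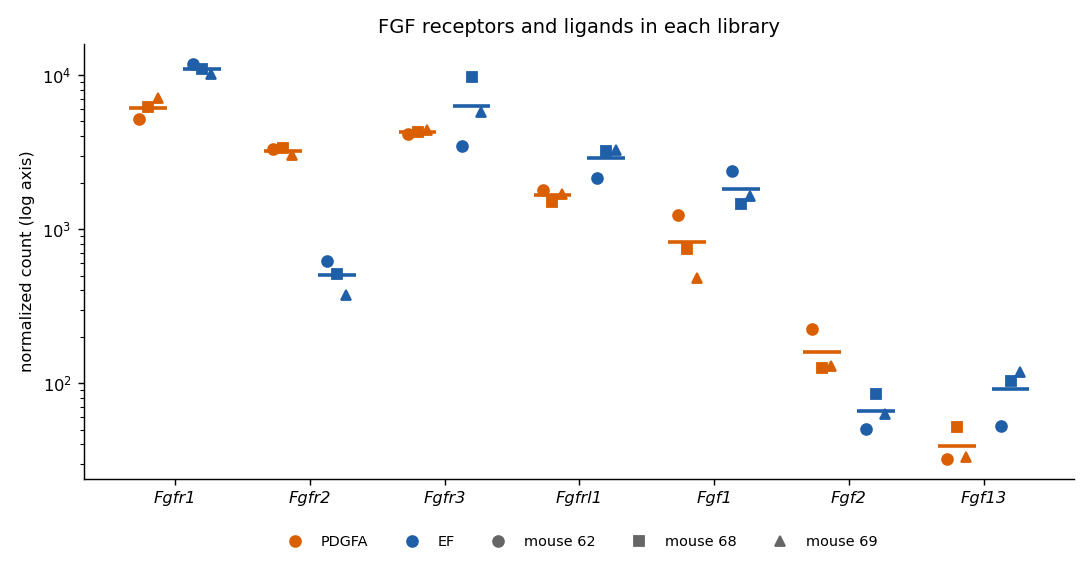
Normalized counts (log axis) of the 7 genes in each library, with PDGFA libraries in orange and EF libraries in blue; the marker shape gives the mouse and the bar the group mean. Fgfr2 sits between 3031 and 3358 in PDGFA, above the 373 to 619.6 of EF, and the Fgfr3 points of PDGFA lie inside the wide range of EF.

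Among the receptors, Fgfr2 (chromosome 7, minus strand, GRCm38, with a GENCODE M21 span of 130162451 to 133123350), one of the receptor tyrosine kinases, changed most of the 7 genes. Its normalized count was 3304, 3358 and 3031 in the PDGFA libraries of mice 62, 68 and 69, and 619.6, 510.0 and 373 in the EF libraries of the same mice. The lowest PDGFA library stood far above the highest EF library, and the PDGFA libraries lay close together. The means were 3231 ± 175 in PDGFA and 501 ± 123 in EF (SD, n = 3 each), a 6.45-fold higher mean, with 2.72 as log2 fold change (SE 0.20, limma adjusted p = 6.8e-05), higher in all 3 pairs. It passed the test under all 17 alternative settings, with adjusted p of at most 0.00299. Markers of oligodendrocytes were also higher in PDGFA: 9 of 10 were tested and all 9 rose, against 21.8% of all tested genes. Their summed normalized count over all 10 was 285785, 336699 and 361761 in PDGFA for mice 62, 68 and 69. In EF it was 2454, 3869 and 2613, and Mog was at 0 in the 3 EF libraries. PDGFA 69 had the highest sum and the lowest Fgfr2, and in EF the sum was highest in mouse 68 and Fgfr2 in mouse 62. Orders of 3 libraries cannot show what part these markers had in the Fgfr2 result, and that part was not tested.

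Fgfr1 (chromosome 8, 25513654 to 25575718, plus strand), another receptor tyrosine kinase, had the highest count of the 7 in every library but stood lower in PDGFA. It read 5169, 6233 and 7087 in PDGFA and 11857, 10956 and 10171 in EF for mice 62, 68 and 69. The groups did not overlap. The means were 6163 ± 961 in PDGFA and 10995 ± 843 in EF (SD, n = 3 each), with -0.84 as log2 fold change (SE 0.16, limma adjusted p = 0.00505), lower in all 3 pairs. It stayed called without any single library, and lost the call when both libraries of mouse 68 were left out (adjusted p = 0.0691). All 6 markers of dividing cells were also called lower in PDGFA, against 18.0% of all tested genes. Their sums were 1800.2, 1989 and 2062 in PDGFA for mice 62, 68 and 69, and 40148, 61928 and 84454 in EF. From mouse 62 to mouse 69 the sums rose in both groups, while Fgfr1 rose in PDGFA and fell in EF. Such orders of 3 libraries cannot show the part of these markers in the Fgfr1 result, which was not tested.

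Fgfr3 (chromosome 5, 33721674 to 33737068, plus strand), also a receptor tyrosine kinase, was even across the PDGFA libraries and uneven across the EF libraries. It read 4157, 4298 and 4435 in PDGFA and 3484, 9693 and 5755 in EF for mice 62, 68 and 69. The EF library of mouse 62 lay below all PDGFA libraries and the other two EF libraries above them. The means were 4297 ± 139 in PDGFA and 6311 ± 3141 in EF (SD, n = 3 each), and the log2 fold change of -0.43 (SE 0.33, limma adjusted p = 0.335) has a 95% interval of -1.20 to 0.34, which holds both falls and rises. Without the EF library of mouse 62 it was called lower (log2 fold change -0.80, adjusted p = 0.027), and without EF 68 the value was -0.06; the alternatives gave adjusted p of 0.0001 to 0.908. Of 10 astrocyte markers 7 rose and 0 fell in limma (0 also at an unadjusted p under 0.05, by edgeR and by DESeq2). Over all tested genes 21.8% rose and 18.0% fell. The astrocyte sums were 187260.3 to 300327 in PDGFA. In EF the sum was 98224 in the library of mouse 68, the one with the most Fgfr3, against 56240.2 and 61629 in those of mice 62 and 69. This was not particular to astrocyte markers. The sums of oligodendrocyte precursor, oligodendrocyte, endothelial and mural, fibroblast and ependymal markers were also highest in EF 68. Those of progenitor, neuronal, microglia and dividing-cell markers were not. The part of the astrocyte markers in the Fgfr3 values was not tested.

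Fgfrl1 (chromosome 5, 108692382 to 108706924, plus strand) binds FGFs but lacks the intracellular tyrosine kinase of the other receptors. It read 1798, 1508 and 1687 in PDGFA and 2157, 3216 and 3286 in EF. The groups did not overlap, with the EF library of mouse 62 the nearest to PDGFA. The means were 1664 ± 147 in PDGFA and 2886 ± 633 in EF (SD, n = 3 each), or -0.77 as log2 fold change (SE 0.19, limma adjusted p = 0.0159), lower in all 3 pairs. The call was lost without PDGFA 68 (adjusted p = 0.0731), PDGFA 69 (0.0527) or EF 68 (0.0501). In EF the summed markers of dividing cells were lowest in mouse 62, at 40148, against 61928 and 84454 in mice 68 and 69. In PDGFA the sum was again lowest in mouse 62, at 1800.2, where Fgfrl1 was highest. The part of these markers was not tested.

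**Figure D2:**
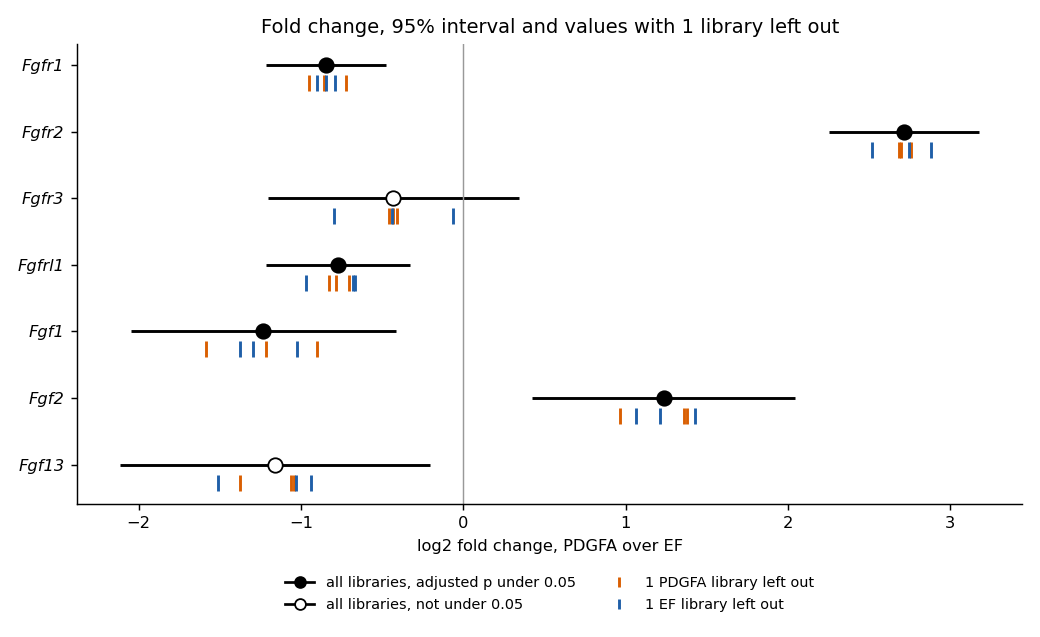
Log2 fold change of PDGFA over EF for each gene with its 95% interval (limma; filled circles have an adjusted p under 0.05), and below it the 6 values with 1 library left out, orange ticks for a PDGFA library and blue for an EF library. Fgfr2 lies at 2.72 with ticks on the same side of 0 for every library, and the interval of Fgfr3 spans 0.

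Levels of different genes were compared as normalized count per kilobase of annotated exon. On that scale Fgfr1 had 624 ± 97.3, Fgfr3 600.3 ± 19.4, Fgfrl1 598 ± 52.7, Fgfr2 313 ± 17.0, Fgf1 150.04 ± 70.3, Fgf2 23.5 ± 8.19 and Fgf13 9.70 ± 2.71 in PDGFA (SD, n = 3). In EF Fgfr1 had 1113 ± 85.4, Fgfrl1 1037 ± 227, Fgfr3 882 ± 439, Fgf1 335 ± 90.5, Fgfr2 48.5 ± 11.9, Fgf13 22.7 ± 8.50 and Fgf2 9.72 ± 2.52. In both groups the ranges of Fgfr1, Fgfr3 and Fgfrl1 overlapped with their neighbour in the order, while each step below them was free of overlap. Fgfr2 stood above Fgf1 in PDGFA and below it in EF, and Fgf2 stood above Fgf13 in PDGFA and below it in EF. With the longest annotated transcript as the length, these positions of Fgfr2 against Fgf1 and of Fgf2 against Fgf13 were the same, and Fgfr2 came above Fgfrl1 in PDGFA (730 against 715 per kilobase).

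The mix of the 3 kinase receptors was read within each library, per kilobase of exon. Fgfr2 made up 22.5%, 20.9% and 18.0% of the sum of Fgfr1, Fgfr2 and Fgfr3 in the PDGFA libraries of mice 62, 68 and 69, and 3.43%, 1.97% and 1.93% in the EF libraries. Fgfr1 made up 36.8%, 40.5% and 44.0% in PDGFA and 68.7%, 44.1% and 55.1% in EF. The Fgfr1 shares of PDGFA 69 and EF 68 were nearly equal, and the Fgfr2 shares of the groups lay far apart. Fgfr3 made up 39.1 ± 1.47% in PDGFA and 41.6 ± 13.1% in EF (SD, n = 3 each). The summed level was 1537 ± 105 in PDGFA and 2044 ± 411 in EF, normalized counts per kilobase. The log2 ratio of Fgfr2 to Fgfr1 was -0.99 ± 0.29 in PDGFA and -4.55 ± 0.26 in EF (SD, n = 3 each), a difference of 3.56 with a two-sided exact permutation p = 0.1, the smallest that 3 against 3 libraries can give, and 0.2 when adjusted over the 2 ratios examined. That p could not have been otherwise, since Fgfr2 was higher and Fgfr1 lower in PDGFA, each without overlap. The log2 ratio of Fgfr3 to Fgfr1 was -0.045 ± 0.18 in PDGFA and -0.46 ± 0.80 in EF, a difference of 0.41 (exact permutation p = 0.5, adjusted 0.5). Without the EF library of mouse 62 that difference was -0.0099.

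**Figure D3:**
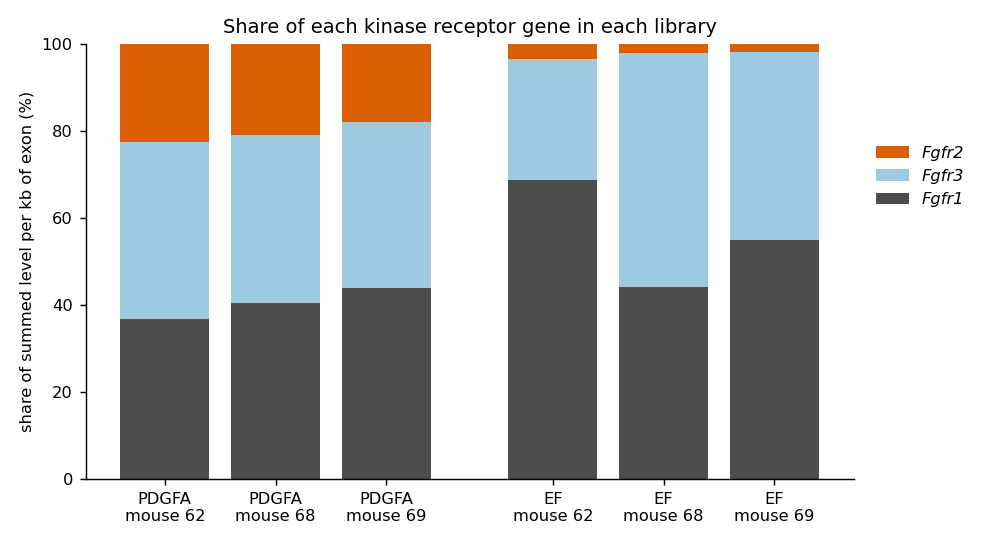
Share (%) of Fgfr1, Fgfr3 and Fgfr2 in their summed normalized count per kilobase of exon, 1 bar per library, PDGFA libraries on the left and EF libraries on the right. The Fgfr2 share is 18.0% to 22.5% in PDGFA and 1.93% to 3.43% in EF.

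Among the ligands, Fgf1 (chromosome 18, 38838673 to 38929472, minus strand), which binds all FGF receptors and leaves cells without a signal peptide, was lower in PDGFA. It read 1236, 745 and 478 in PDGFA and 2392, 1461 and 1638 in EF for mice 62, 68 and 69. The groups did not overlap, and the library of mouse 62 was the highest in both. The means were 819.7 ± 384 in PDGFA and 1830.4 ± 494 in EF (SD, n = 3 each), or -1.23 as log2 fold change (SE 0.35, limma adjusted p = 0.027), lower in all 3 pairs. The call was lost without PDGFA 68 (adjusted p = 0.0788), PDGFA 69 (0.0755), EF 62 (0.0653) or EF 69 (0.0508).

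Fgf2 (chromosome 3, 37348346 to 37410108, plus strand), also exported without a signal peptide and widely used as a progenitor mitogen, was the ligand that rose. It read 223, 125 and 129 in PDGFA and 50.8, 84.4 and 62.6 in EF. The groups did not overlap, and PDGFA 62 stood apart from the other two PDGFA libraries. The means were 159 ± 55.6 in PDGFA and 65.9 ± 17.1 in EF (SD, n = 3 each), or 1.24 as log2 fold change (SE 0.35, limma adjusted p = 0.0259), higher in all 3 pairs. Blocking on the mouse gave an adjusted p of 0.0546, and the call was also lost without PDGFA 62 (0.108), PDGFA 68 (0.0598), PDGFA 69 (0.0552) or EF 69 (0.0501). These values rest on 263, 131 and 144 recovered reads in PDGFA and 53, 75 and 49 in EF. The 95% exact Poisson intervals, which cover counting error only, were 109.5 to 155 reads for PDGFA 68, the lowest PDGFA library, and 59.0 to 94.0 for EF 68, the highest EF library. These are reads before division by the size factor, 1.05 for PDGFA 68 and 0.888 for EF 68. The intervals are thus not on one scale, and the gap between them is not read as a difference. Per kilobase of exon the level of Fgf1 was 6.87, 7.39 and 4.60 times that of Fgf2 in PDGFA and 58.5, 21.5 and 32.5 times in EF, a ratio looked at after its values were seen.

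Nudt6, a nudix hydrolase gene long known as the antisense partner of FGF2, is annotated on the minus strand of chromosome 3 from 37404910 to 37420211 and shares 640 exon bases with Fgf2, which is 9.4% of the exon bases of Fgf2. The library kit does not mark strand, and the counting rule for shared bases is not given in the sources used here, so reads in that stretch cannot be assigned to one of the pair. Nudt6 moved opposite to Fgf2, with 48.4, 59.2 and 53.8 normalized counts in PDGFA and 132, 92.3 and 134 in EF. The means were 53.8 ± 5.41 in PDGFA and 119.6 ± 23.6 in EF (SD, n = 3 each), or -1.12 as log2 fold change (SE 0.29, limma adjusted p = 0.0192), lower in all 3 pairs. Blocking on the mouse gave 0.0528, and the adjusted p was 0.0606 to 0.0786 without any single PDGFA library. The ratio of Fgf2 to Nudt6, chosen after its values were seen, was 4.61, 2.11 and 2.40 in PDGFA and 0.384, 0.915 and 0.467 in EF. Its ranges could not overlap, since Fgf2 was higher and Nudt6 lower in PDGFA, each without overlap.

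**Figure D4:**
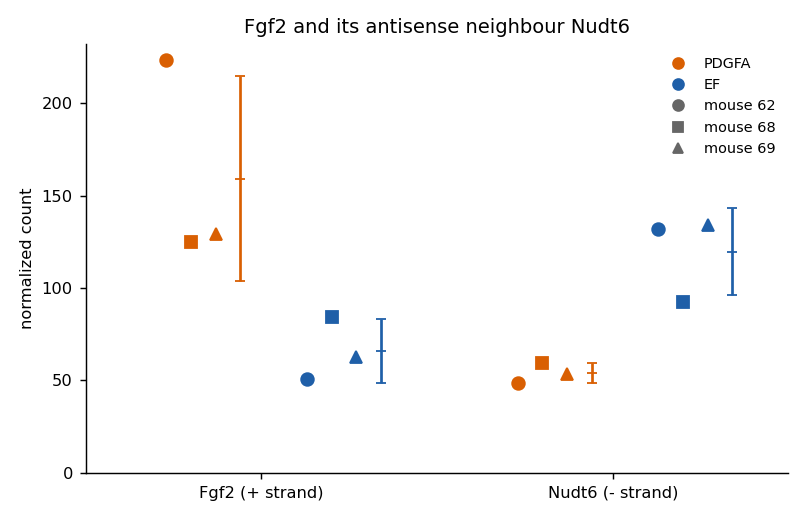
Normalized counts of Fgf2 and of Nudt6, which overlaps it on the opposite strand, in each library, with PDGFA in orange and EF in blue; bars give the mean and SD of 3 libraries. Fgf2 is 125 to 223 in PDGFA above 50.8 to 84.4 in EF, and Nudt6 is 48.4 to 59.2 in PDGFA below 92.3 to 134 in EF.

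Fgf13 (chromosome X, 59062145 to 59568071, minus strand) belongs to the FGF homologous factors, which stay inside the cell and bind voltage-gated sodium channels, and for Fgf13 also microtubules. It read 32.3, 51.6 and 33.1 in PDGFA and 52.7, 104 and 118 in EF. The groups did not overlap, but PDGFA 68 and EF 62 were close. The means were 39.0 ± 10.9 in PDGFA and 91.3 ± 34.2 in EF (SD, n = 3 each), and the log2 fold change of -1.16 (SE 0.41, limma adjusted p = 0.0563) has a 95% interval of -2.11 to -0.21. It was called lower by edgeR (adjusted p = 0.0482), by DESeq2 (0.0168), with upper-quartile scaling (0.0452) and with library weights (0.00227). It was also called lower when EF 62 was left out (0.0112). These were 5 of the 17 alternatives, which gave 0.00227 to 0.21. The gene had 37 to 54 reads in the PDGFA libraries and 55 to 92 in the EF libraries. Of 9 tested neuronal markers 3 rose and 1 fell, against 21.8% and 18.0% of all tested genes. The neuronal sums were 37063 to 46286 in PDGFA and 26438 to 31249 in EF. The part of these markers in the Fgf13 values was not tested.

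Other annotated overlaps bear on single receptors. The GENCODE M21 span of Fgfr2 runs far upstream of its RefSeq start, which borders the promoter window at 130266809 to 130267058. The overlaps and exon length of Fgfr2 therefore depend on the annotation used. The span reaches into Ctbp2 and covers or touches 69 other genes. Of these Ctbp2, a transcriptional co-repressor on the same strand, is the one that shares exon bases with it (314 bases, 3.0% of the exon bases of Fgfr2). Ctbp2 had -0.66 as its log2 fold change (SE 0.19, limma adjusted p = 0.0256), opposite to Fgfr2, and was not called without any single PDGFA library (0.0728 to 0.0856). Of the 27 tested genes inside or touching the span, 8 rose and 4 fell, beside 21.8% and 18.0% of all tested genes, and the median log2 fold change was 0.34. Fgfr3 shares 998 exon bases, 13.9% of its own, with the unnamed model G630022F23Rik on the other strand. That model read 84.9, 108.9 and 90.5 in PDGFA and 17.2, 60.8 and 29.4 in EF, far below the Fgfr3 counts, with a log2 fold change of 1.55 (limma adjusted p = 0.0343). It was not called by edgeR (0.0522), nor without any single PDGFA library or EF 69 (0.071 to 0.121). Gm16159 shares 164 exon bases with Fgfr1 (1.7%) and Gm43439 shares 255 with Fgf2 (3.8%); both are without values here. Fgf1 and Fgf13 overlap 2 and 4 annotated genes, none by exon bases, and Fgfrl1 overlaps 0. The tested gene that overlaps Fgf1, Arhgap26 on the other strand, was called lower, with a log2 fold change of -2.41.

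Changes of the genes below are given on the log2 scale, as PDGFA over EF, with limma adjusted p. Of 22 further genes of the FGF family, 16 were in the table and 6 were tested. Fgf17, a secreted ligand of the FGF8 subfamily, rose with 22.6 ± 3.95 normalized counts in PDGFA and 7.25 ± 5.34 in EF (SD, n = 3 each; log2 fold change 1.69, SE 0.52, limma adjusted p = 0.036). It was not called when any library other than EF 62 was left out (0.0784 to 0.119), nor by edgeR (0.0542) or DESeq2 (0.0676). Without EF 62, 2 of the 6 were called higher, against 24.7% of all tested genes. None of the 6 fell in limma, against 1 at an unadjusted p under 0.05, 0 by edgeR and 1 by DESeq2. The receptor gene Fgfr4 was too low to test, at 4.24 to 8.96 in PDGFA and 2.25 to 5.11 in EF. The intracellular relatives of Fgf13 did not pass: Fgf11 averaged 1002 ± 89.4 in PDGFA and 669 ± 376 in EF, Fgf12 498 ± 60.3 in PDGFA and 442 ± 174 in EF, and Fgf14 129.5 ± 26.9 in PDGFA and 240.2 ± 80.6 in EF (adjusted p 0.0592 to 0.555 for the 3). Among their tested partners Mapk8ip2, a JNK scaffold that binds them, rose by 2.71 (adjusted p = 0.0206). Mapk8ip2 was not called without any single PDGFA library or EF 69 (0.0523 to 0.0637), nor by edgeR (0.0511), and its log2 value came to 1.93 when EF 62 was left out and to 3.57 when EF 68 was. Of the 9 tested relatives and sodium channel partners 1 was called higher and 1 lower, against 21.8% and 18.0% of all tested genes. With EF 68 left out 3 of the 9 were called higher and 1 lower, against 19.7% and 15.1%.

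Co-receptors, which bind FGF receptors in the membrane, rose in 3 of 6 tested cases and fell in none. The background was 21.8% higher and 18.0% lower, and no fall was seen at an unadjusted p under 0.05 in limma or at an adjusted p by edgeR or DESeq2. Ncam1, the neural cell adhesion molecule, had 26664 ± 5091 normalized counts in PDGFA and 12724 ± 1961 in EF (SD, n = 3 each), 1.06 higher on the log2 scale (SE 0.20, limma adjusted p = 0.00522). Flrt1, a leucine-rich repeat transmembrane protein, rose by 2.84 (adjusted p = 0.0373) and L1cam, a neural adhesion molecule, by 1.67 (adjusted p = 0.0481). Flrt1 was not called without any single PDGFA library or EF 69 (0.0538 to 0.0985), nor by edgeR (0.0592), and its log2 value came to 1.69 when EF 62 was left out and to 3.67 when EF 68 was. L1cam was not called without PDGFA 62, PDGFA 68, EF 62 or EF 69 (0.0747 to 0.156), nor by edgeR (0.0583). The count of co-receptors that rose was 1 by edgeR, against 21.0% of all tested genes. It was also 1 without PDGFA 62, PDGFA 68 or EF 69, against 15.6%, 13.5% and 20.7%. Without EF 62, 2 of the 6 were called lower, against 22.5%.

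Inside the cell, the adaptors that the active receptor recruits were called higher in 4 of 14 tested cases and lower in 3 (28.6% and 21.4%, against 21.8% and 18.0% of all tested genes). Gab1, a docking protein, rose by 1.19 (SE 0.20, adjusted p = 0.00275), Ptpn11, the phosphatase SHP2, by 0.75 (SE 0.16, adjusted p = 0.00893), and Frs2, the adaptor bound directly to FGF receptors, by 0.57 (SE 0.12, adjusted p = 0.00942). Crkl, a small adaptor, rose by 0.41 (adjusted p = 0.0372). Cbl, a ubiquitin ligase that takes active receptors out of service, fell by 0.76 (SE 0.12, adjusted p = 0.00244), Shb by 1.05 (SE 0.23, adjusted p = 0.0104) and Plcg1, phospholipase C gamma, by 0.40 (SE 0.12, adjusted p = 0.0331). Without PDGFA 68 neither Frs2 (0.0604) nor Ptpn11 (0.052) was called, and 1 of the 14 was called higher, against 13.5% of all tested genes. Crkl (0.0606 to 0.174) and Plcg1 (0.0535 to 0.152) were not called without any single PDGFA library or EF 68, nor with the mouse as a block (0.0995 and 0.111).

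Genes listed as FGF feedback genes and targets, most of them inhibitors, fell in 10 of 11 tested cases, against 18.0% of all tested genes. Their median log2 fold change was -2.47. The EF medium held EGF as well as FGF, and the parts of EGF, FGF and PDGFA in the fall cannot be told apart. The list overlaps genes already known to fall in these data. The count called higher was 0 by limma, edgeR and DESeq2, and also 0 at an unadjusted p under 0.05. Spry1, a Sprouty inhibitor of receptor signalling, had 554 ± 15.4 normalized counts in PDGFA and 7239 ± 579 in EF (SD, n = 3 each; log2 fold change -3.70, SE 0.12, limma adjusted p = 7.92e-06). Dusp6, the phosphatase of ERK, fell by 4.87 (SE 0.22) and the transcription factor gene Etv5 by 3.29 (SE 0.19). Spred1 fell by 0.52 and was not called without any single PDGFA library (0.059 to 0.0709) or with the mouse as a block (0.0588). The member that did not pass was Il17rd, the membrane inhibitor SEF, which was called higher without EF 68 (adjusted p = 0.0198).

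Heparan sulfate is the shared cofactor of FGF binding, and its enzymes fell in 5 of 19 tested cases and rose in 1 (26.3% and 5.26%, against 18.0% and 21.8% of all tested genes). Xylt1, which starts the chains, fell by 2.24 (SE 0.18, adjusted p = 0.000103), Hs6st2, which adds 6-O-sulfate, by 3.11 (SE 0.31, adjusted p = 0.000257), and Ext1, which extends the chains, by 1.18 (SE 0.14, adjusted p = 0.000629). Glce, the epimerase of the chains, fell by 1.32 (adjusted p = 0.00776), and Extl3, which commits a chain to heparan sulfate, by 0.62 (adjusted p = 0.016), a call lost without PDGFA 62 (0.073) or PDGFA 68 (0.076). Sulf2, which removes 6-O-sulfate outside the cell, rose to 16144 ± 134 normalized counts in PDGFA, against 9973 ± 686 in EF (SD, n = 3 each; log2 fold change 0.70, SE 0.13, adjusted p = 0.00517). Without EF 69, 3 of the 19 were called higher, against 20.7% of all tested genes, and 2 with the mouse as a block, against 18.8%.

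Of the 12 core proteins that carry the chains, 2 rose and 5 fell (16.7% and 41.7%, against 21.8% and 18.0% of all tested genes). Sdc4, a syndecan, rose by 1.23 (SE 0.14, adjusted p = 0.000485) and Gpc3, a glypican, by 1.87 (SE 0.39, adjusted p = 0.00785). Hspg2, perlecan, fell by 2.48 (SE 0.20, adjusted p = 0.000105), Sdc3 by 1.92 (SE 0.26, adjusted p = 0.00104), Gpc4 by 2.28 (SE 0.32, adjusted p = 0.00134), Gpc6 by 1.80 (SE 0.26, adjusted p = 0.00145) and Sdc1 by 1.84 (SE 0.51, adjusted p = 0.0252). Sdc1 was not called without PDGFA 68 (0.0606), PDGFA 69 (0.0909) or EF 68 (0.0668). Of the regulators that choose between the alternative extracellular exons of the receptors, Ptbp1 fell by 1.03 (SE 0.28, adjusted p = 0.0218), a call lost without any single PDGFA library (0.0549 to 0.0805), and Rbfox2 did not pass (-0.42, adjusted p = 0.0629). Counts per gene do not separate the receptor isoforms.

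**Figure D5:**
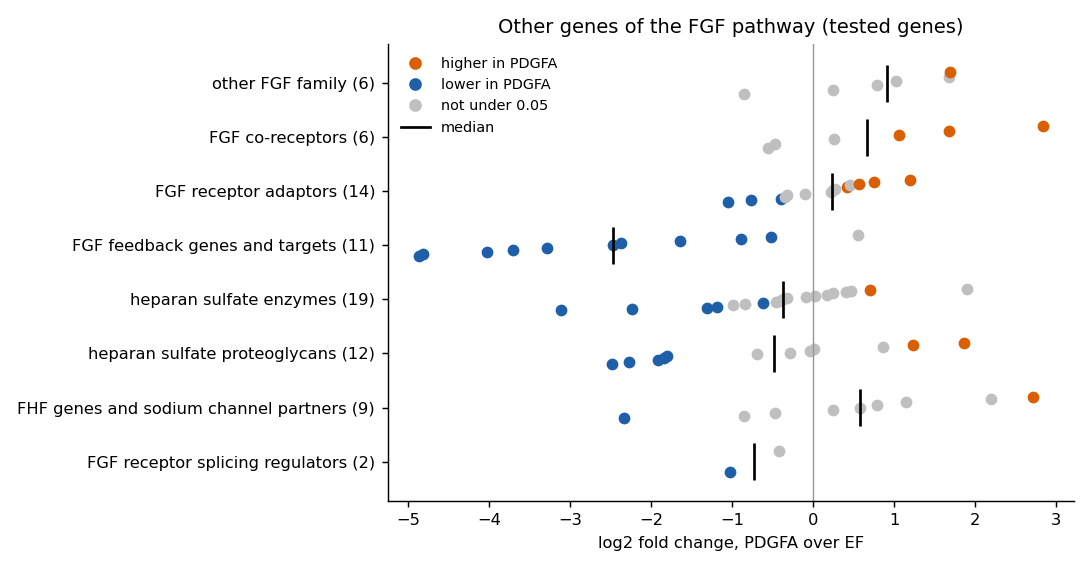
Log2 fold change of PDGFA over EF for the tested genes of 8 lists of the FGF pathway, 1 point per gene, orange where called higher, blue where called lower and grey otherwise, with the list median as a bar and the number of tested genes in brackets. The feedback genes and targets lie lowest, with a median of -2.47 and 10 of 11 called lower, against 18.0% of all tested genes.

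Genes with the pattern closest to each of the 7 were found by the root mean square difference of log2 values over the 6 libraries, each gene centred on its mean, among 13385 named tested genes. Closest to Fgfr2 were Ralgps1 and Rab3il1, each at 0.11, and Dapk1 at 0.13; Ralgps1 read 7280 to 8270.5 in PDGFA and 860.4 to 1370.4 in EF. Closest to Fgfr1 were Zfp941, Pdss2 and Cep41 (0.077 to 0.086), and closest to Fgfr3 were Ppp1r14c, Rdh11 and Pcdh19 (0.084 to 0.13). Ppp1r14c read 641 to 699.9 in PDGFA and 501, 1531 and 795 in EF for mice 62, 68 and 69. That its highest EF library, mouse 68, is that of Fgfr3 follows from how it was chosen. Fgfrl1 had the closest match of the 7, Spg7 at 0.048, followed by Tomm40l at 0.05 and Dlat at 0.081. The nearest genes were Snord53, Fermt3 and Gch1 for Fgf1 (0.17 to 0.21), Frmpd3, Slc25a35 and Brsk2 for Fgf2 (0.16 to 0.19), and H1f10, Rem2 and Galnt14 for Fgf13 (0.14 to 0.15).

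Markers of other cell types were in part absent from the table. Of 9 microglia markers 2 were in the table, with sums of 5.73 to 8.96 in PDGFA and 11.5 to 44.7 in EF. Of 8 endothelial and mural markers 6 were present (475 to 786 in PDGFA, 97.7 to 464 in EF), of 6 fibroblast markers 3 (728 to 925 in PDGFA, 74.1 to 149.7 in EF), and of 5 ependymal markers 3 (645 to 935 in PDGFA, 125 to 309.6 in EF). Of 8 markers of oligodendrocyte precursors 3 of those tested rose and 2 fell, against 21.8% and 18.0% of all tested genes. These counts were 5 and 2 without EF 68, against 19.7% and 15.1% of all tested genes. They were 3 and 1 without PDGFA 68 (13.5% and 10.9% of all) or PDGFA 69 (15.0% and 12.4%). The precursor sums were 171549 to 243584 in PDGFA and 113509.9 to 254842 in EF, the highest in EF 68.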

How the data were processed

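The polyadenylated RNA of 6 libraries was sequenced, with a NEBNext Ultra II kit that does not mark strand, per the labels. The authors deposited 1 table of normalized signal: counts divided by a library's size factor (0.782 to 1.18). FastQC, STAR, DESeq2, mm10 and GRCm38 are named per the submitters' processing notes. For the annotation release and strand setting: not given in the sources used here.

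Dividing by a library's smallest positive value turned 100% of its values into whole numbers within 0.001, which recovered the reads. The depth behind Fgf2 and Fgf13 was 263 reads or fewer per library. Genes with a mean of at least 10 (17068 of 22057) were tested as log2(value + 1) with limma 3.58.1 (mean trend, group as the only term, two-sided) in R 4.3.3 with Benjamini-Hochberg adjustment, a scale that understates the change of low genes. On recovered reads, edgeR 4.0.16 (quasi-likelihood) called 3592 higher and 3263 lower and DESeq2 1.42.0 called 3942 and 3746, against 3720 and 3076 in limma. The tests were checked on simulated reads. Each mouse gave 1 library to each group, so mouse numbers pair libraries by animal; correlations of their deviations from group means were -0.091, 0.11 and -0.11 for mice 62, 68 and 69. Libraries of 1 group differed beyond sampling noise (chi-square of at least 21.9 per degree of freedom). Gene positions and exon lengths came from GENCODE M21 (GRCm38) by symbol.

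The genes, lists and rules were chosen with earlier results of these data known. The naming rule took the 7 genes, called list members (at most 3 by p in each direction, more to account for a count of 5 or fewer), genes that overlap one of the 7 by coordinates (summarised where no exon bases are shared), and the 3 nearest patterns. Fgfr4, Fgf11, Fgf12, Fgf14, Rbfox2, Spred1, Sulf1 and Gpc5 were named outside it, and the ratios of Fgf1 to Fgf2 and Fgf2 to Nudt6 were chosen, after their values were seen. A gene that the rule took is not reported here. Alternatives were pseudocounts of 0.5 and 5, no filter or a mean of 50, TMM and upper-quartile scaling, library weights, the mouse as a block, and leaving out libraries.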

Additional observations from a re-analysis of the deposited data

How the results depend on the processing

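The directions of Fgfr1, Fgfr2, Fgfrl1, Fgf1, Fgf2 and Fgf13 were the same under all 17 alternatives, and the call of Fgfr2 held under each. With 1 library left out, 1 to 2 of the 7 genes were called higher and 1 to 4 lower, against 13.5% to 24.7% and 10.9% to 22.5% of all tested genes. Without both libraries of mouse 68 the counts were 1 higher (Fgfr2) and 0 lower, against 11.4% and 7.82% of all tested genes. At an unadjusted p under 0.05, 2 were lower without mouse 68. With the mouse as a block (replicate block) 1 was higher, since Fgf2 lost its call, and 3 lower, against 18.8% and 15.4% of all tested genes. Of the other pathway and overlapping genes, the block ended the calls of Crkl, Plcg1, Spred1 and Nudt6, and Sulf1 was called with it (adjusted p = 0.0157). Library weights called 5 of the 7 lower, where they called 34.7% of all tested genes lower and 37.1% higher. Over all genes the calls were 2306 to 4213 higher and 1855 to 3848 lower with 1 library left out, 1945 and 1335 without mouse 68, and 6328 and 5921 with library weights. Over the 8 pathway lists 12 genes were higher and 25 lower, against 5 to 13 and 20 to 30 with 1 library left out, 7 higher without PDGFA 62, 5 without PDGFA 68, 7 and 15 without mouse 68, and 20 and 38 with library weights, under which Gpc5, not called at 0.86 without weights, was called at -1.25. The cause was not tested. These list counts are read beside the share of all tested genes called in each setting, which was 21.8% higher and 18.0% lower with all libraries. In PDGFA the shares of Fgfr1, Fgfr2 and Fgfr3 were 44.8%, 23.7% and 31.4% without length scaling, and Fgfr2 and Fgfr3 had 24.7% and 34.2% with the longest transcript, while the difference in the log2 ratio of Fgfr2 to Fgfr1 ran from 3.42 to 3.71 with 1 library left out. The shares with 1 library left out ran from 38.7% to 42.3% for Fgfr1, 19.4% to 21.7% for Fgfr2 and 38.3% to 39.7% for Fgfr3 in PDGFA. In EF they moved more for Fgfr1 (49.6% to 61.9%) and Fgfr3 (35.4% to 48.4%), and ran from 1.95% to 2.70% for Fgfr2. The difference in the log2 ratio of Fgfr3 to Fgfr1 ran from -0.0099 to 0.79. Fgf13 rests on 37 to 92 reads per library.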
